A study of Homo sapiens with 132 samples.

Results

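Gene expression in untreated MKN7 cells was compared between 24 h and 4 h after time zero of a drug experiment, in 3 libraries per time point. These 6 libraries were chosen by their labels (cell line MKN7, no treatment, 4 h or 24 h) from 132 libraries of 4 gastric cancer cell lines and 44 conditions. No drug, ligand or vehicle label distinguishes the time points, so the comparison measures how the transcriptome of the control cells moved between the samplings. MKN7 is an established human gastric cancer line that was grown in RPMI medium with fetal calf serum. The cells were seeded on the day before time zero and received fresh medium shortly before it, so that time after plating, age of the medium, cell density and hour of the day changed together and cannot be told apart. Polyadenylated RNA was sequenced from directional libraries, and the authors deposited raw counts per gene. Further MKN7 libraries from cells given trastuzumab (Tra, an antibody against ERBB2, 5 μg/ml) or afatinib (Afa, an inhibitor of the ERBB family kinases, 0.5 μM), and untreated libraries of MKN1, NCI-N87 and Hs746T, serve below as comparisons, with 3 libraries per group and the same time points.

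Freshly fed and recently plated cells are known to differ from cells left in the same medium for a day. Serum growth factors drive immediate early genes through the MAP kinase cascade and, over hours, the synthesis of ribosomes and of attachment proteins. As nutrients and growth factors decline and cells grow denser, FOXO factors, the sterol sensor SREBP2, the glucose sensor MondoA and the oxygen sensor HIF are known to adjust transcription of their target genes. Cultured cells also keep a circadian clock that a change of medium can set.

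The 6 libraries held 40310266 to 53097655 counts, of which 98.1% to 98.5% fell on protein-coding genes. The summed level of 8 epithelial markers was 6050 to 7001 CPM (counts scaled by library size) at 4 h and 5901 to 6917 CPM at 24 h. Leukocyte markers summed to at most 1.11 CPM, with CD68 at 0, endothelial markers to at most 2.27 CPM, and fibroblast markers to 9.43 to 16.0 CPM at 4 h and 15.2 to 20.4 CPM at 24 h, most of it COL1A1. One library stood apart: replicate 3 of 24 h differed from replicates 1 and 2 by 46.9 and 76.4 times the squared difference that counting error gives, against 27.8 between those 2 and 25.4 to 30.9 among the 4 h libraries. The numbers of the replicates pair the libraries, and a fit with the replicate number as a block is given beside the fit without it where a call or a count changes. Of 19674 protein-coding identifiers, 2221 were listed at 0 in all 42 libraries read, among them RPL15, RPS4X, OAZ1, XBP1 and JUNB, genes that cells in general express. A listed 0 is therefore not read as silence, and the cause was not tested.

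The sequences of a pair of promoters are shown because their genes, HSPA8 and ARRDC4, are described below with values in every library, and because each holds letters of a known response element. They are the 250 bases before the start in the RefSeq table of build GRCh38.p14, printed 5′ to 3′ on the strand of the gene. In HSPA8, the constitutive chaperone HSC70 (chr11:123062137-123062386, minus strand), the capitals mark the heat shock element, searched on both strands as 3 alternating units GAA and TTC with any 2 bases between them. In ARRDC4, an arrestin-domain protein that lowers glucose uptake (chr15:97960453-97960702, plus strand), the capitals mark the E-box CACGTG, the core of the sites that MondoA is known to bind.
HSPA8: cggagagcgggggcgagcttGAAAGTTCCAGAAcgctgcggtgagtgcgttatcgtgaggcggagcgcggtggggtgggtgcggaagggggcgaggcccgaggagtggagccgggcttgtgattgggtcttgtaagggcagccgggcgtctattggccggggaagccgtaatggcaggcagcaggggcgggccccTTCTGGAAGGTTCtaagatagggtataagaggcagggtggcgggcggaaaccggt
ARRDC4: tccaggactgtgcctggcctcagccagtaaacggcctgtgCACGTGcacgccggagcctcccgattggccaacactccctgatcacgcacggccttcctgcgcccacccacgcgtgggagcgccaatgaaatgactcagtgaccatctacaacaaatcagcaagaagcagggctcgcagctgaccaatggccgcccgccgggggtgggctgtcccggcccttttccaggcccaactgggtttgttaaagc
The heat shock letters were found 2 times in HSPA8. They occurred in 2 of 13 promoters of the heat shock list and in 36 of 11529 promoters of tested genes (0.312%). The E-box was found in ARRDC4 and not in this window of TXNIP. It occurred in 2 of 22 available promoters of the ribosome biogenesis list (9.09%) and in 5 of 17 of the circadian clock list (29.4%). Of 11529 promoters of tested genes, 965 held it (8.37%). A match is a description of the letters only.

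Between 4 h and 24 h, more genes crossed the study's criteria upwards than downwards, and most of them were weakly expressed. Regulated genes (adjusted p below 0.05 in edgeR's quasi-likelihood test and a fold change above 2, that is an absolute log2FC above 1) numbered 240 higher at 24 h (1.3% of 18483 genes tested) and 86 lower (0.465%). With the replicate block they numbered 335 (1.81%) and 132 (0.714%). Without the fold criterion, 1286 genes rose (6.96%) and 1743 fell (9.43%), so that 42.5% of the called genes were higher, and scaling by library size alone turned this to 64.9%. With the block the same counts were 2474 (13.4%) and 3243 (17.5%). The median log2FC over all tested genes was -0.0036, and scaling by library size alone moved it to 0.062.

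The regulated genes that rose had a median level of 0.421 CPM at 4 h and 1.01 CPM at 24 h, and those that fell had 0.832 CPM and 0.35 CPM. Their median log2FC was 1.28 and -1.25. The largest risen values belong to genes near 0, and 2 of the 240 had no count in any 4 h library. Protein-coding genes made up 120 of the 240 and 59 of the 86, against 13874 of all 18483 genes tested. Long intergenic noncoding RNAs made up 61 of the 240 and 6 of the 86, of 1632 tested. In 212 of the 240 and 80 of the 86, the 3 libraries of 24 h lay outside the range of those of 4 h, as did 12.7% of all tested genes upwards and 14.4% downwards. The counts depended on single libraries: 434 and 146 genes were regulated without replicate 3 of 24 h, 122 and 46 without replicate 3 of 4 h, 127 and 52 without replicate 1 of 24 h and 137 and 66 without replicate 2 of 24 h. In a fit of the 6 libraries alone, which estimates the spread without the other MKN7 libraries, 81 and 31 genes were regulated.

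**Figure D1:**
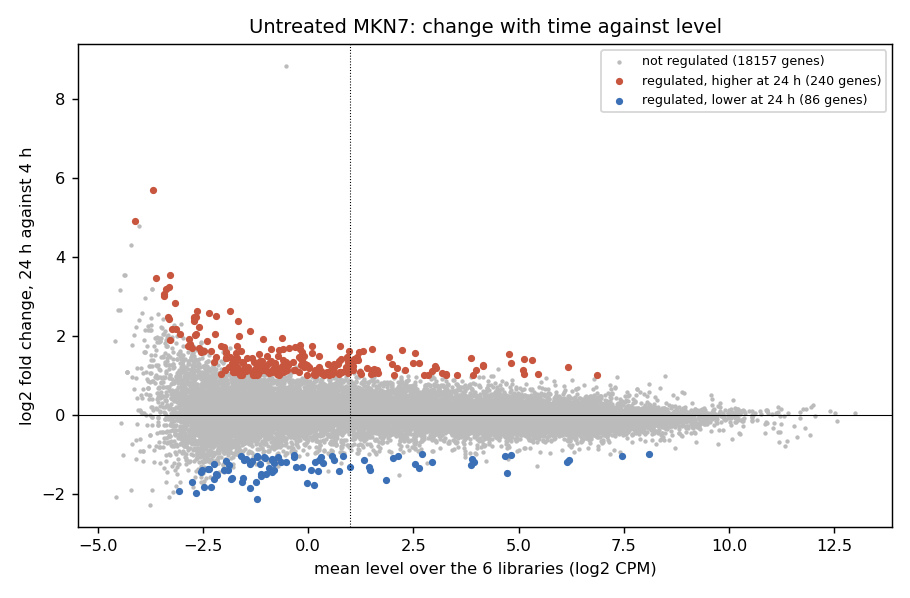
Log2 fold change of 24 h against 4 h (y axis) plotted against the mean level over the 6 libraries in log2 CPM (x axis), 1 point per tested gene. Regulated genes are coloured, 240 above and 86 below, and 52 and 20 of them lie right of the dotted line at a log2 CPM of 1.

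Among the 52 regulated genes that rose and had a mean log2 CPM above 1, RBBP8NL, SLC28A1, MAP2K6, C11orf86 and AP000769.1 had the largest log2FC, from 1.56 to 1.68. SLC28A1 is a sodium-coupled nucleoside transporter and MAP2K6 a kinase that activates p38. ARTN (chr1:43933320-43937241, plus strand), the neurotrophic ligand artemin, was at 20.7, 19.4 and 9.73 CPM at 4 h and at 61.3, 52.7 and 31.9 CPM at 24 h. FGD3, an exchange factor for CDC42, was at 26.5, 29.7 and 19.8 CPM and then at 74.4, 84.4 and 40.0 CPM. DIO2, the deiodinase that makes active thyroid hormone, was at 28.0, 26.5 and 14.2 CPM and then at 78.8, 75.5 and 27.5 CPM. In each of the 3 genes replicate 3 was the lowest library at both time points. The groups did not overlap for ARTN and FGD3, while for DIO2 replicate 3 of 24 h lay among the 4 h libraries. Their log2FC were 1.55 ± 0.32 (SE, n = 3 per group, adjusted p = 0.0026, edgeR) for ARTN, 1.39 ± 0.24 (adjusted p = 0.0007, edgeR) for FGD3 and 1.41 ± 0.31 (adjusted p = 0.0038, edgeR) for DIO2. NFATC4, a transcription factor released by calcineurin, rose by a log2FC of 1.47. CLIC3, of the chloride intracellular channel family, rose by 1.43, and NYAP1, AP000812.1, LINC01843, LINC00840 and the scavenger receptor SCARA3 by 1.38 to 1.45. The calls of C11orf86 and SCARA3 were each lost in 4 of 12 alternatives, that of NYAP1 in 2, and those of SLC28A1, CLIC3, DIO2 and AP000812.1 in 1. AP000769.1, AP000812.1, LINC01843 and LINC00840 are noncoding. Whether reads were counted by strand is not given in the sources used here, so antisense and overlapping genes remain uncertain.

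The 20 genes that fell at this level were led by AC010754.1 and ALPK2, with a log2FC of -1.64 and -1.49. ALPK2 (chr18:58481247-58628957, minus strand), an atypical kinase, was at 46.6, 47.3 and 39.4 CPM at 4 h and at 15.4, 17.3 and 14.9 CPM at 24 h, and the groups did not overlap (adjusted p = 2.5e-05, edgeR). PTPRK, a receptor tyrosine phosphatase of cell contacts named here because its adjusted p was the smallest (2.3e-07, edgeR), was at 235, 260 and 265 CPM and then at 110, 127 and 131 CPM, and fell by 1.04 ± 0.08 on the log2 scale. IL6R, the receptor of interleukin 6, was at 11.6, 9.14 and 9.04 CPM and then at 3.67, 3.71 and 4.27 CPM, again without overlap, and fell by 1.35 ± 0.19 on the log2 scale. TBX3, a repressor of the T-box family, was at 107, 99.0 and 125 CPM and then at 39.5, 42.2 and 68.6 CPM. GPAT3, an acyltransferase of triglyceride synthesis, was at 107, 93.4 and 134 CPM and then at 39.5, 33.8 and 72.5 CPM. In TBX3 and GPAT3 replicate 3 was the highest at both time points, and no 24 h library reached a 4 h library. ANO1 (a calcium-activated chloride channel), ADAM12 (a metalloprotease), MFSD2A (a lipid transporter), NAV3, MYH16, STX1A, KRTAP2-3 and CGB8 fell by 1.09 to 1.39 on the log2 scale, of which KRTAP2-3 and CGB8 belong to families of near-identical copies and are uncertain. The calls of ANO1 and NAV3 were each lost in 4 of 12 alternatives. POMK fell by 1.25, yet its replicate 3 of 4 h stood at 16.6 CPM against 5.51 and 6.35 CPM in the others, and without it the log2FC was -0.58 (adjusted p = 0.11, edgeR).

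**Figure D2:**
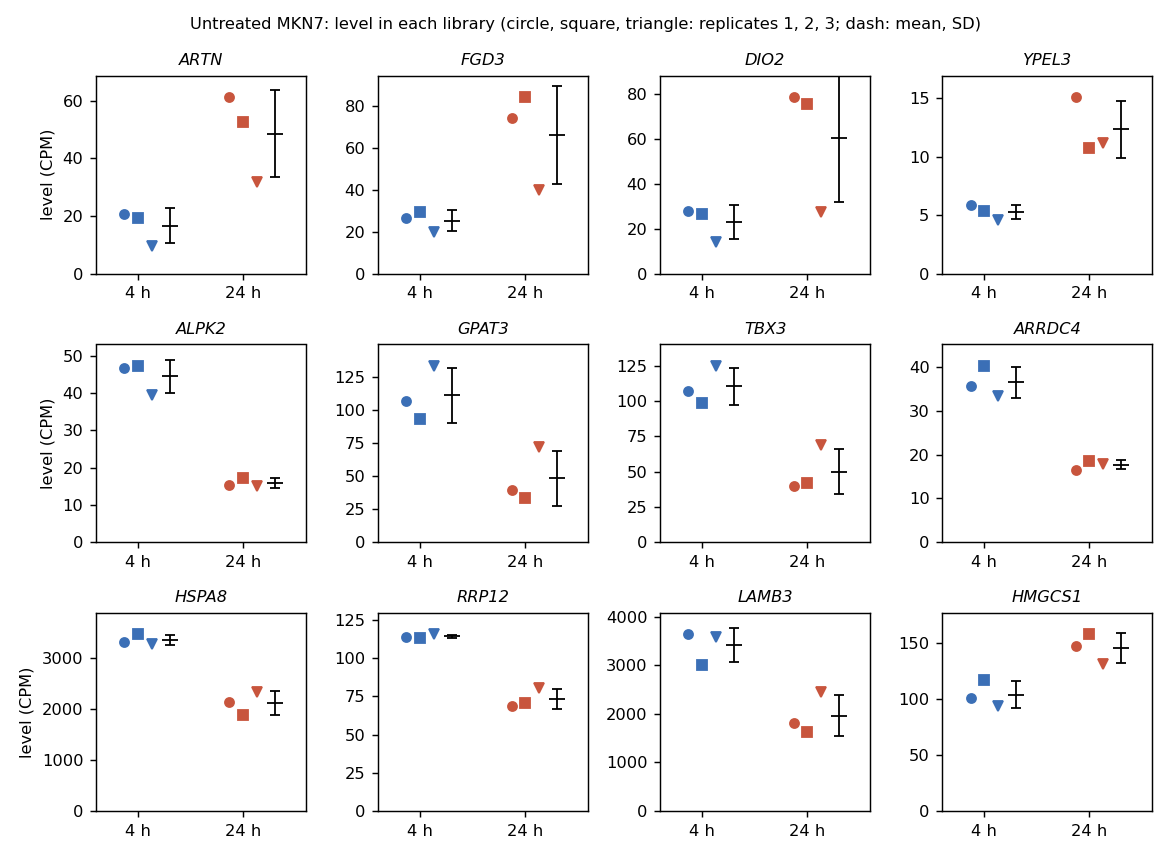
Level in CPM (y axis, from 0) of 12 genes in each of the 6 libraries, with 4 h in blue and 24 h in red; circles, squares and triangles are replicates 1, 2 and 3, and the dash and bar give the mean and SD. ALPK2 and ARRDC4 were tight within each time point, and in ARTN, FGD3, DIO2, GPAT3 and TBX3 replicate 3 lay apart from the others at 24 h.

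Genes of ribosome biogenesis fell together by small amounts. Of 30 listed genes 27 were tested, and 23 of them fell with an adjusted p below 0.05, 25 with the block, against 9.43% and 17.5% of all genes; none rose. Their median log2FC was -0.43, ranging from -0.64 to -0.15, so that none met the fold criterion. RRP12 (chr10:97356358-97426076, minus strand), which exports both ribosomal subunits from the nucleus, was at 114, 113 and 116 CPM at 4 h and at 68.8, 70.5 and 80.7 CPM at 24 h. NCL, the nucleolar protein nucleolin, was at 1489, 1462 and 1387 CPM and then at 1008, 1029 and 1069 CPM. Neither gene overlapped between the time points, and 23 of the 27 members were lower without overlap, against 14.4% of all genes. The log2FC was -0.64 ± 0.08 for RRP12 (adjusted p = 6e-05, edgeR) and -0.48 ± 0.07 for NCL (adjusted p = 0.00018, edgeR). DKC1 (pseudouridine synthase), POLR1B (a subunit of RNA polymerase I) and LYAR fell by 0.57, 0.63 and 0.61. Within same-numbered pairs of libraries the median log2 ratio of the list was -0.52, -0.48 and -0.27, and 27, 27 and 25 of the 27 members were lower. The number of members that fell was 10 in the fit of the 6 libraries alone, 13 without replicate 1 and 14 without replicate 2 of 24 h, with a median of -0.35 or lower in every alternative run. The cytosolic ribosomal proteins did not show this: 0 of 70 tested genes passed the test, with a median of 0.055. In pairs 1 and 2 of the libraries 65 and 60 of these 70 genes were lower at 24 h, in pair 3 only 2 were.

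Within pairs of libraries the median log2 ratio of the immediate early genes was -0.37, -0.34 and -0.14, and that of the genes of MAPK feedback and output -0.41, -0.44 and -0.12, so that both lists moved least in pair 3. Of 26 tested immediate early genes, MYC, the serum response factor SRF and KLF4 fell and JUND rose, shares near those of all genes (9.43% and 6.96%). With the block 13 fell and 2 rose, against 17.5% and 13.4%. The median was -0.34. MYC was at 536, 513 and 521 CPM at 4 h and at 348, 349 and 450 CPM at 24 h, a log2FC of -0.45 ± 0.11 (adjusted p = 0.0082, edgeR). FOSL1, a FOS-family partner of JUN, was at 570, 498 and 666 CPM and then at 252, 221 and 499 CPM. Its replicate 3 of 24 h lay level with the lowest 4 h library, and the adjusted p of 0.065 became 0.00012 with the block. EGR4, ARC and FOS had log2FC of -1.16, -1.42 and -0.91 with adjusted p of 0.14 to 0.23. Of 16 tested genes of MAPK feedback and output, 3 fell, CCND1 (cyclin D1), SPRED1 and DUSP4, and with the block 9 fell and 2 rose. CCND1 was at 1234, 1259 and 1482 CPM and then at 744, 820 and 1047 CPM, a log2FC of -0.61 ± 0.13 (adjusted p = 0.003, edgeR). SPRY4, an inhibitor of the cascade, had a log2FC of -1.06 (adjusted p = 0.052, and 0.00042 with the block). DUSP6, a phosphatase of ERK, was at 9.41, 9.12 and 14.8 CPM at 4 h and at 4.18, 3.56 and 13.9 CPM at 24 h. In DUSP6 replicates 1 and 2 of 24 h lay below all 4 h libraries and replicate 3 among them, and the test did not pass (adjusted p = 0.31, and 0.031 with the block). Without replicate 3 of 24 h, 7 immediate early and 8 MAPK genes fell, and without replicate 1 or 2 of 24 h 1 gene of each list did.

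Of 13 tested ERBB receptors and EGFR ligands, 2 rose and 1, the ligand TGFA, fell by 0.40, and with the block 3 rose and 3 fell. Over all genes 6.96% rose and 9.43% fell, and 13.4% and 17.5% with the block. ERBB3 was at 26.5, 28.96 and 26.3 CPM at 4 h and at 42.5, 40.3 and 33.4 CPM at 24 h, and rose by a log2FC of 0.51 ± 0.09 (adjusted p = 0.0012, edgeR). ERBB4 rose by 0.67 ± 0.13, from 4.83, 6.15 and 5.28 CPM to 7.93, 10.0 and 7.89 CPM. ERBB2 was at 3616, 3959 and 3669 CPM and then at 4960, 4834 and 3554 CPM, with replicate 3 of 24 h below all others, and EGFR was at 527, 643 and 696 CPM and then at 426, 490 and 582 CPM. Neither passed (adjusted p = 0.12 and 0.085), but both did with the block (0.024 and 0.0076). Of 14 tested FOXO targets 5 rose and 1 fell, against 6.96% and 9.43% of all genes, with a median of 0.23. With the block 6 FOXO targets rose and 1 fell. YPEL3, a growth-suppressive protein, was at 5.85, 5.35 and 4.59 CPM and then at 15.1, 10.7 and 11.2 CPM, without overlap, and its log2FC of 1.23 ± 0.18 met the fold criterion (adjusted p = 0.00023, edgeR). CCNG2, RBL2, MXI1 and CAT rose by 0.24 to 0.64, and SOD2 fell by 0.28.

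Of 13 tested heat shock genes, 8 fell and none rose, against 9.43% and 6.96% of all genes, and 5 did not pass. The median was -0.27, and with the block 9 fell, against 17.5% of all genes. HSPA8 was at 3305, 3459 and 3270 CPM at 4 h and at 2132, 1880 and 2336 CPM at 24 h, and HSPA1B, inducible HSP70, was at 118, 149 and 137 CPM and then at 87.03, 64.2 and 73.2 CPM. The time points did not overlap in either gene. The log2FC was -0.66 ± 0.10 for HSPA8 (adjusted p = 0.00018, edgeR) and -0.85 ± 0.14 for HSPA1B (adjusted p = 0.00069, edgeR), and since HSPA1A and HSPA1B are near-identical copies, their reads may be divided between them. HSP90AB1, HSPH1, DNAJB1, DNAJA1 and BAG3 fell by 0.24 to 0.42. The count was 3 in the fit of the 6 libraries alone, 3 without replicate 2 of 24 h and 4 without replicate 2 of 4 h. Of 20 tested ER chaperones and their regulators, the stress sensor ERN1, HYOU1 and DNAJB9 fell, and 8 fell with the block. Of 23 ATF4 targets 6 fell, among them the amino acid transporter subunits SLC7A5 and SLC3A2 by 0.44 and 0.38 and the cystine transporter SLC7A11 by 0.81 (a call lost with scaling by library size alone), and the mTORC1 inhibitor DDIT4 rose by 0.67. With the block 12 fell and 4 rose, against 17.5% and 13.4% of all genes. None of 13 tRNA synthetases passed, and with the block 4 fell.

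Of 22 tested genes of matrix and adhesion, 8 fell and 1 rose, and 16 and 1 with the block, against 9.43% and 6.96% of all genes and 17.5% and 13.4% with the block. The other 13 did not pass. The list had a median of -0.43. LAMB3 and LAMA3 encode chains of laminin-332, which attaches epithelial cells to their base. LAMB3 was at 3638, 3011 and 3588 CPM at 4 h and at 1816, 1628 and 2445 CPM at 24 h. LAMA3 was at 3190, 2712 and 3024 CPM and then at 1629, 1649 and 2216 CPM. Neither overlapped, and replicate 3 was the highest at 24 h in both. The log2FC was -0.80 ± 0.14 for LAMB3 (adjusted p = 0.00084, edgeR) and -0.70 ± 0.15 for LAMA3 (adjusted p = 0.0029, edgeR). The integrin subunits ITGA3, ITGA6, ITGAV and ITGB6 fell by 0.24 to 0.61, and the hyaluronan receptor CD44 by 0.74. TNS3, a tensin at focal adhesions, rose by 0.70. The count of members that fell was 3 in the fit of the 6 libraries alone and 5 without replicate 1 of 24 h or replicate 3 of 4 h. Among 13 targets of TGF-beta and BMP, PMEPA1, TGFBI and LTBP2 fell by 0.47 to 0.58, and with the block 4 fell and 2 rose. None of 22 YAP targets passed the test, with a median of -0.0019, and with the block 4 rose and 6 fell.

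**Figure D3:**
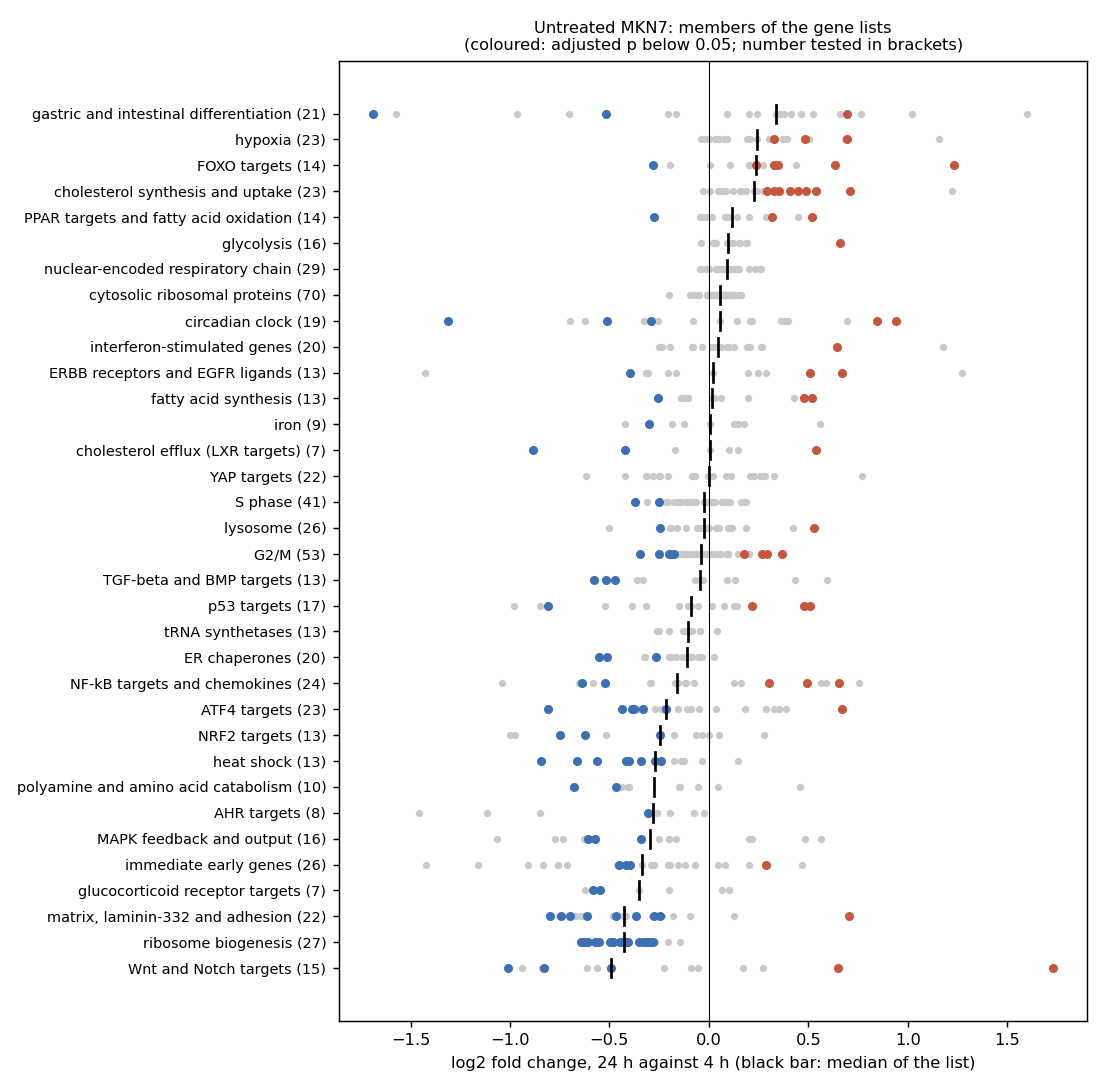
Log2 fold change of 24 h against 4 h (x axis) of each tested member of the gene lists with at least 5 tested members (y axis); red and blue points rose and fell with an adjusted p below 0.05, grey points did not pass, and black bars are medians. The members of ribosome biogenesis lie left of 0 between -0.64 and -0.15, and those of cholesterol synthesis and uptake mostly right of it.

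Of 23 tested genes of cholesterol synthesis and uptake 8 rose, 11 with the block, against 6.96% and 13.4% of all genes. None fell, against 9.43% of all genes, or 17.5% with the block. The median was 0.23. HMGCS1, which makes HMG-CoA, was at 101, 117 and 93.7 CPM at 4 h and at 148, 158 and 131 CPM at 24 h. HSD17B7, of the later steps, was at 8.83, 10.9 and 9.52 CPM and then at 17.6, 15.2 and 15.03 CPM. No 24 h library of either was as low as a 4 h library, and the log2FC was 0.49 ± 0.11 for HMGCS1 (adjusted p = 0.0051, edgeR) and 0.71 ± 0.10 for HSD17B7 (adjusted p = 0.00016, edgeR). MSMO1, FDFT1, TM7SF2, STARD4, MVK and MVD rose by 0.29 to 0.54. The count of cholesterol genes that rose was 4 in the fit of the 6 libraries alone and 5 without replicate 1 of 24 h or replicate 3 of 4 h. Of 7 targets of the oxysterol receptor LXR, MYLIP, which degrades the LDL receptor, fell by 0.42 and ABCA1, the cholesterol exporter, by 0.88, from 7.20, 6.35 and 7.83 CPM to 3.90, 3.51 and 4.19 CPM, while NR1H3, which encodes LXR alpha, rose by 0.54. In fatty acid synthesis ACSS2 and FADS2 rose by 0.52 and 0.48 and FASN fell by 0.25, a call lost under 9 of 12 alternatives (adjusted p = 0.13 with scaling by library size alone), and with the block 3 genes of the list rose and 2 fell.

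Genes that respond to oxygen and glucose were called unevenly. Of 23 tested hypoxia genes, PFKFB4, MXI1 and INSIG2 rose and none fell, with a median of 0.24, and with the block 11 rose. Of all genes 6.96% rose and 9.43% fell, and 13.4% and 17.5% with the block. PFKFB4, a regulator of glycolysis, was at 11.8, 14.2 and 14.2 CPM at 4 h and at 20.7, 23.5 and 20.8 CPM at 24 h, a log2FC of 0.69 ± 0.10 (adjusted p = 0.00016, edgeR). SLC2A3, a glucose transporter, was at 18.8, 24.6 and 6.59 CPM and then at 39.8, 46.5 and 25.2 CPM. Replicate 3 lay below the others at both time points, and the log2FC of 1.16 passed only with the block (adjusted p = 0.13, and 7.4e-05 with it). The median ratio of the hypoxia list within pairs was 0.17, 0.080 and 0.48. Among 16 glycolytic genes ENO2 rose by 0.66, and with the block 3 rose. Both targets of MondoA were lower at 24 h in all 3 pairs. ARRDC4 was at 35.6, 40.3 and 33.4 CPM and then at 16.6, 18.6 and 17.9 CPM, without overlap, and fell by 1.04 on the log2 scale (SE 0.12, adjusted p = 2.5e-05, edgeR). TXNIP, an inhibitor of thioredoxin and of glucose uptake, was at 194, 215 and 128 CPM and then at 106, 145 and 91.7 CPM, with overlap between the time points, and its log2FC of -0.65 passed only with the block (adjusted p = 0.12, and 1.1e-05 with it).

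**Figure D4:**
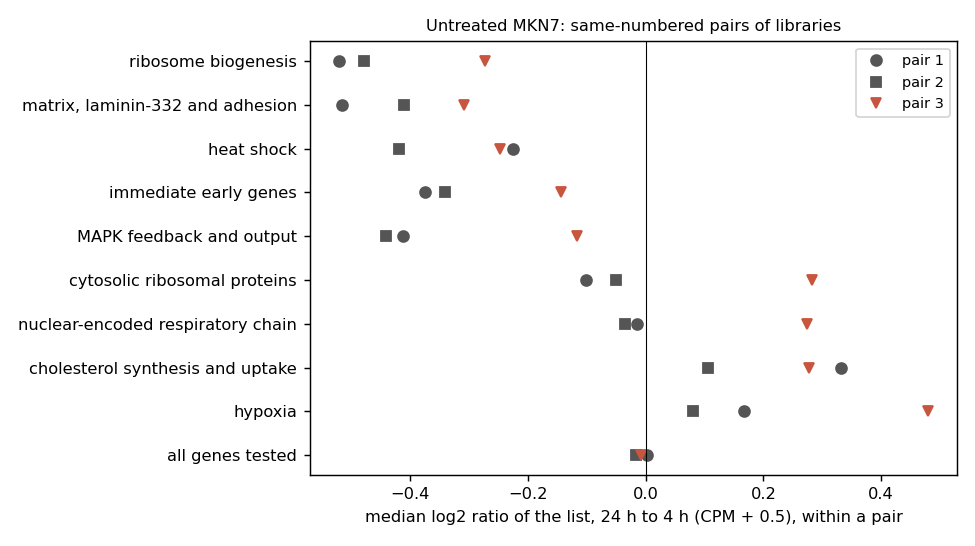
Median log2 ratio of 24 h to 4 h within each same-numbered pair of libraries (x axis, CPM with 0.5 added) for 9 gene lists and all tested genes (y axis). Pair 3, in red, gave -0.27 for ribosome biogenesis against -0.52 and -0.48, and 0.28 for cytosolic ribosomal proteins against -0.10 and -0.050.

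Of 19 tested clock genes, 2 rose and 3 fell, against 6.96% and 9.43% of all genes. With the block 6 rose and 5 fell, against 13.4% and 17.5%. DBP, a clock output factor, was at 7.36, 5.18 and 5.05 CPM at 4 h and at 14.7, 9.83 and 9.05 CPM at 24 h, and PER2, a repressor of the clock, was at 9.10, 9.03 and 10.4 CPM and then at 6.61, 6.79 and 6.57 CPM. The libraries of the time points did not overlap in either. The log2FC was 0.94 ± 0.19 for DBP (adjusted p = 0.0025, edgeR), -0.51 ± 0.12 for PER2 (adjusted p = 0.0068, edgeR) and 0.85 ± 0.12 for BHLHE41. CRY2 fell by 0.29. HLF, a factor related to DBP, met the fold criterion at a low level, from 1.56, 1.41 and 1.24 CPM to 0.554, 0.788 and 0.335 CPM, a log2FC of -1.31 ± 0.31.

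In Wnt and Notch signalling, 2 of 15 tested genes were regulated, 1 in each direction, against 1.3% of all genes upwards and 0.465% downwards. JAG1, a Notch ligand, was at 37.8, 36.2 and 50.9 CPM at 4 h and at 14.3, 16.0 and 31.8 CPM at 24 h, and fell by 1.01 ± 0.26 on the log2 scale (adjusted p = 0.012, edgeR). NOTUM, an enzyme that inactivates Wnt ligands, was at 0.712, 0.520 and 0.505 CPM and then at 2.75, 1.59 and 1.38 CPM, a log2FC of 1.73 ± 0.35 (adjusted p = 0.0024, edgeR). Neither overlapped. NOTCH3 rose by 0.65, and LEF1 and TCF7 fell by 0.83 and 0.49, while with the block 6 fell and 2 rose. Of all genes 17.5% fell and 13.4% rose with the block, and 9.43% and 6.96% without it. In the list of gastric and intestinal differentiation, the gastric mucin MUC5AC fell by 1.69 ± 0.41 at under 1 CPM, GATA4 fell by 0.52, and the intestinal cadherin CDH17 rose by 0.69, of 21 tested, while with the block 3 rose and 2 fell. Of the epithelial markers ELF3, an epithelial transcription factor, was regulated, at 13.3, 13.8 and 8.58 CPM and then at 35.4, 30.8 and 17.4 CPM, a log2FC of 1.23 ± 0.24.

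Further lists held few calls, beside 6.96% of all genes higher and 9.43% lower, and 13.4% and 17.5% with the block. Both enzymes that lead into polyamine synthesis fell, ODC1 by 0.68 and AMD1 by 0.46, of 10 tested genes, 6 with the block. SLC30A1, a zinc exporter induced by zinc, fell by 0.85 of 3 tested genes of zinc handling, and MT2A had a log2FC of -0.63 (adjusted p = 0.14, and 0.016 with the block), with replicate 3 of 24 h at 534 CPM against 240 and 189 CPM in the others. The glucocorticoid targets FKBP5 and SGK1 fell by 0.58 and 0.55, of 7 tested, and with the block 3 fell. Of 13 NRF2 targets GCLM, OSGIN1 and GCLC fell, and 6 with the block. Of 17 p53 targets AEN fell by 0.81, and DDB2, CCNG1 and PHLDA3 rose by 0.22 to 0.51, while with the block 5 fell. Of 24 NF-kB targets and chemokines NFKB1 and LIF fell by 0.52 and 0.64, ICAM1, TNFAIP2 and CCL28 rose by 0.30 to 0.65, and with the block 7 fell. Of 8 AHR targets TIPARP fell by 0.30, and with the block 3 fell. PARP9 rose by 0.64 as the one call of 20 interferon-stimulated genes, and 2 rose with the block. Of 14 PPAR targets PDK4 and ETFDH rose by 0.52 and 0.32 and ACSL1 fell by 0.27, and with the block 3 rose and 1 fell. Of 26 lysosomal genes GABARAPL1 rose by 0.53 and CLCN7 fell by 0.24, and of 9 iron genes STEAP3 fell by 0.30. With the block 2 rose and 3 fell among the lysosomal genes, and likewise among the iron genes.

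Cell cycle genes passed the test about as often as all genes or less often. Of 41 tested S phase genes 2 fell, CLSPN by 0.37 and SLBP by 0.25, and 4 with the block. Of 53 G2/M genes 4 rose and 5 fell, shares near those of all genes (6.96% and 9.43%), with a median of -0.042. NCAPD2, NUSAP1, CDC25C and NDC80 rose by 0.18 to 0.37, and HJURP, CENPE, RANGAP1, CDCA8 and KIF23 fell by 0.17 to 0.35. With the block 7 rose and 9 fell, again near the shares of all genes (13.4% and 17.5%). None of 29 nuclear-encoded respiratory chain genes passed, with a median of 0.090, and with the block 1 rose.

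Cells given trastuzumab at time zero were sampled at the same times and share no library with the untreated groups. Between 24 h and 4 h they had 742 regulated genes (4.01%), 595 higher and 147 lower. The 2 sets shared 156 genes higher at 24 h (65.0% of the untreated set and 26.2% of the trastuzumab set) and 43 lower (50.0% and 29.3%), and 0 genes were regulated in opposite directions. Across all 18483 genes Pearson's r between the log2FC of the 2 comparisons was 0.69, a description over genes, which are not independent replicates. Deviations of same-numbered MKN7 libraries from their group means correlated at a mean of 0.27 over 84 pairs. Such libraries are therefore not independent between treatments, and the effect on the overlap was not tested. By the criteria the change with time differed between trastuzumab and untreated cells for 0 genes in edgeR. It did for 0 genes also with the replicate block and in DESeq2. In edgeR 302 of the 18483 genes had an unadjusted p below 0.05, fewer than that limit passes when no gene differs. The 0 therefore does not show that the changes were equal. With trastuzumab 26 of the 27 ribosome biogenesis genes fell and 18 of the 23 cholesterol genes rose, against 13.7% of all genes in either direction. ARRDC4 had a log2FC of -1.29, HSPA8 of -0.80 and FGD3 of 1.52 there.

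The change with time differed between afatinib-treated and untreated MKN7 cells for 864 genes (4.67%), a comparison that shares the untreated libraries with the sets above. The paper names DMSO as the solvent control of afatinib, and no library is labelled as DMSO alone. Drug and solvent therefore cannot be told apart here. Of the 240 genes that rose in untreated cells, the change with afatinib was above that without for 10 and below it for 14, and of the 86 that fell it was above for 13 and below for 3. With afatinib 229 of the 240 and 72 of the 86 kept their sign, 201 and 45 of them at an adjusted p below 0.05. At that limit 4952 of all 18483 tested genes rose and 4726 fell with afatinib. ARTN had a log2FC of 0.19 with afatinib against 1.55 without. CLIC3 had 3.24 against 1.43.

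In the other lines very different numbers of genes met the criteria in untreated cells over the same interval. A joint fit of the untreated libraries of all lines gave 1396 regulated genes of 20560 in MKN1, 12 in NCI-N87 and 17 in Hs746T. The same fit gave 199 in MKN7, so that more genes met the criteria in MKN1 than in MKN7. The median absolute log2FC over all genes was 0.22 in MKN7, 0.32 in MKN1, 0.15 in NCI-N87 and 0.16 in Hs746T. The medians that follow cover genes chosen for their change in MKN7 and do not rank the lines. The 240 risen genes of MKN7 had a median log2FC of 0.80 in MKN1, 0.057 in NCI-N87 and 0.12 in Hs746T, over the 226 tested there, and 65, 0 and 1 of them were regulated upwards. The 86 fallen genes had medians of -0.50, -0.14 and -0.19 over 82, with 23, 1 and 0 regulated downwards. The difference itself passed the criteria for 232 of 20560 genes against MKN1 (1.13%), 13 against NCI-N87 (0.0632%) and 8 against Hs746T (0.0389%), in either direction. With the replicate block the numbers were 541, 237 and 182, while a fit of only the libraries compared gave 252, 0 and 1. Of the genes regulated in untreated MKN7, 6 of the risen and 7 of the fallen differed from MKN1 in the direction of their change in MKN7, 3 and 2 from NCI-N87, and 2 and 3 from Hs746T. The ribosome biogenesis list had a median of -0.59 in MKN1, -0.073 in NCI-N87 and -0.040 in Hs746T. Of its 27 genes tested in MKN7, 0, 1 and 1 differed from MKN7 at an adjusted p below 0.05. At that limit 418, 23 and 11 of all 20560 genes did. For heat shock genes the medians were -0.43, -0.42 and -0.079, and for cholesterol genes -0.035, 0.080 and 0.044. The fall of ARRDC4 in MKN7 stood beside log2FC of -0.83, -0.83 and -0.40 in the 3 lines.

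**Figure D5:**
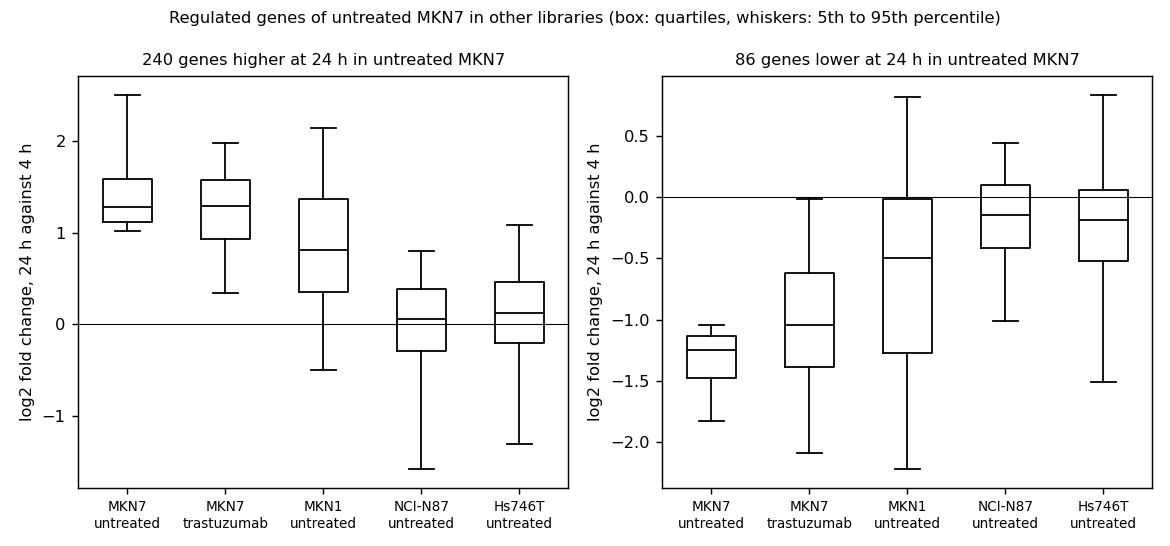
Log2 fold change of 24 h against 4 h (y axis) of the genes regulated in untreated MKN7, in 5 sets of libraries (x axis), left for the 240 genes higher and right for the 86 lower at 24 h; boxes are quartiles, of 226 and 82 genes in the other lines, and the MKN7 untreated boxes show the values that chose the genes. Medians were 1.28, 1.29, 0.80, 0.057 and 0.12 for the risen genes, and -1.25, -1.05, -0.50, -0.14 and -0.19 for the fallen.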

How the data were processed

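RNA sequencing libraries of untreated MKN7 cells, 3 at 4 h and 3 at 24 h, were compared. The values are raw counts for Ensembl genes, as the authors deposited them, 1 file per library. The submitters' processing notes name Trim Galore, STAR and hg38, and the counting program, annotation and strand setting are not given in the sources used here. Identifiers were matched to GENCODE release 29, used here for names and positions, which lacks 8404 of 65217. Of 132 libraries 42 were read, and 90 were not used.

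Counts of all 24 MKN7 libraries were fitted in R 4.3.3 with edgeR 4.0.16 (TMM, glmQLFit, glmQLFTest, 1 mean per treatment and time point) after filterByExpr (min.count 10, min.total.count 15), and the 24 untreated libraries of the 4 lines were fitted for differences between lines. P-values were adjusted by Benjamini-Hochberg over all genes tested. CPM used TMM-scaled library sizes, log2 CPM a prior count of 2. TMM factors were 0.941 to 0.954 at 4 h and 0.968 to 1.02 at 24 h. The labels do not say that replicates are separate cultures, so p-values measure the spread between these libraries. Depth was 40310266 to 53097655 counts per library, and 3 counts correspond to 0.0565 to 0.0744 CPM, which covers counting error only.

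Replicate numbers in the labels were checked for pairing: deviations of same-numbered 4 h and 24 h libraries from their group means correlated at 0.26, 0.26 and 0.16 across genes, so the numbers were taken to pair the samples. The S numbers in the sample descriptions run in 2 series, and replicate 1 of both time points is in the first and replicates 2 and 3 in the second, so the block covers the series.

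Genes named were the 15 largest rises and 15 largest falls among regulated genes with a symbol, a mean log2 CPM above 1 and 1 direction in all pairs, of each of 36 lists every regulated member or otherwise up to 4 tested members with the largest change, the ERBB receptors, and up to 5 genes per direction in each difference between lines or treatments. Other list members named were chosen after their values were seen, as were PTPRK and ELF3. The comparison, members and lists were chosen with earlier results of these data known. Of 805 list entries 705 passed the filter on low counts. The alternatives tried were DESeq2 1.42.0, scaling by library size, other filters, the replicate block, leaving out each library and fitting the 6 libraries alone. Counts of genes and list members at an adjusted p below 0.05 were added after seeing the data. Scripts were tested on simulated counts. Promoters came from a RefSeq table of GRCh38.p14. Figures used Python 3.11.15 and matplotlib 3.10.9. Some members of the lists are not reported here.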

Additional observations from a re-analysis of the deposited data

Results flagged for a closer look

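The change with time in MKN7 differed by a test of the difference itself for 232 genes from MKN1, 13 genes from NCI-N87 and 8 genes from Hs746T, and under afatinib for 864 genes from untreated MKN7 cells. Among regulated genes whose log2 CPM averaged above 1, the log2FC differed from that in MKN1 for MYH16 by -1.59, TBX3 by -1.16 and MAPK15 by -1.07. From NCI-N87, TBX3 differed by -1.32, ALDH3B1 by 1.09 and TMEM139 by 1.38 (adjusted p = 0.015, 0.042 and 0.040, edgeR), though a fit of only the libraries compared called 0 genes against NCI-N87 and 1 against Hs746T. From Hs746T, IL6R differed by -1.72, MYH16 by -1.61 and ALDH3B1 by 1.25. ALDH3B1, an aldehyde dehydrogenase, was at 31.8, 33.5 and 28.6 CPM at 4 h and at 81.8, 66.3 and 44.3 CPM at 24 h in MKN7, without overlap.

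With afatinib the change with time was compared by its difference from untreated cells, which was -2.43 for C11orf86, -1.71 for PLCXD3, -1.49 for MYH16, -1.36 for ARTN and -1.32 for LINC01224. It was 1.24 for JPH2, 1.29 for LINC00884, 1.67 for STX1A, 1.81 for CLIC3 and 1.95 for AC005586.2. All genes named here were chosen among those regulated in the untreated MKN7 libraries, which each of these differences shares. Groups of 3 libraries were not tested for single outlying samples.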

How the results depend on the processing

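Under every alternative run, all of the 326 regulated genes that were tested kept their direction. The 326 were chosen for a large change in these same libraries, so a kept direction was nearly fixed in advance. Fewer stayed regulated: 34.05% in the fit of only the compared libraries, 42.6% without replicate 3 of 4 h and 97.85% with the block. Of the 30 genes named for the largest changes, 20 kept an adjusted p below 0.05 under every alternative. Regulated genes higher and lower at 24 h numbered 145 and 37 with at least 10 counts in every library and 81 and 31 in a fit of only the compared libraries. The replicate block gave 132 lower and left the count higher within 1.5 times. Leaving out 1 library gave 122 to 434 higher and 46 to 146 lower. Without the fold criterion, genes higher and lower numbered 291 and 319 in the fit of only the compared libraries and 2474 and 3243 with the block, leaving out 1 library gave 637 to 1706 and 823 to 2000, and those lower were 977 with library size alone and 908 without a filter. Trastuzumab gave 428 regulated genes with at least 10 counts in every library, and 458 to 1071 when 1 library was left out. The difference from MKN1 gave 369 genes with DESeq2, 541 with the block and 124 to 221 when 1 library was left out. The difference from NCI-N87 gave 83 with DESeq2, 42 without a filter, 28 with at least 10 counts, 237 with the block, 0 in the fit of only the compared libraries and 1 to 104 when 1 library was left out, the highest without replicate 3 of 24 h. The difference from Hs746T gave 49, 21, 182 and 1 under DESeq2, no filter, the block and only the compared libraries, and 1 to 122 when 1 library was left out. The afatinib count stayed within 1.5 times in all, and the trastuzumab difference stayed at 0 genes.

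Among genes of the lists that did not pass the test, the log2FC turned its sign when 1 library was left out for ABCG1 (-0.44 to 0.11), RBMS3 (-0.23 to 0.71), RPS21 (-0.11 to 0.38), RPS29 (-0.12 to 0.37), NDUFA4 (-0.025 to 0.37), CTSL (-0.31 to 2.06), NEU1 (-1.26 to 0.99) and HAMP (-0.66 to 0.078). The causes were not tested. Depth limits genes near 1 CPM, where most regulated genes lie. The time points differ in time after plating, medium age, density and hour together.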
